A study of Homo sapiens with 3 samples.

Results

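The long arm of chromosome 8 (8q) was examined for binding sites of SOX4, a transcription factor of the high-mobility-group family, in BT549 cells. BT549 is an established cell line derived from a human breast tumour of the triple-negative kind. Members were all summits on chromosome 8 past position 45200000 of the GRCh38 build, whatever their score. The arm and this border were picked with earlier results of these data known, so comparisons of 8q with other parts are descriptions. A summit is the 1-bp point at which a peak caller places the centre of enrichment. The arm held 1277 of the 7511 summits in the 3 lists: 243 of 1368 in replicate 1, 483 of 1713 in replicate 2 and 551 of 4430 in replicate 3.

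The study consisted of 3 chromatin immunoprecipitation sequencing (ChIP-seq) libraries that form 1 group, BT549 cells at passage 5, marked UT in all their titles, an abbreviation the labels do not spell out, and all precipitated with the same Abcam SOX4 antibody. The cells were grown in RPMI-1640 with serum and insulin, and chromatin was fixed with DSG before formaldehyde. No label says that the libraries came from separate cultures, so the spread between them may be technical. No input or IgG library and no DNA copy number were analysed here. Each summit comes with a score from the authors, on the −log10 scale of a p or q value, which orders it within its own list. The read depth is unknown, and all intervals cover counting error only.

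SOX-family proteins bend DNA through their high-mobility-group box and act both at promoters and at distant enhancers. SOX4 is active in progenitor cells and is often high in breast tumours with mesenchymal traits. The arm 8q carries MYC, a growth-promoting transcription factor gene, inside a wide stretch with few coding genes and many long non-coding RNA genes. Gains of 8q are frequent in breast cancer. The RefSeq table used here lists 1515 genes on the arm, of which 422 are protein-coding.

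All 3 libraries placed several times more summits on 8q than its length would give. The arm made up 3.24% of the assembled length and held 19.2%, 30.4% and 12.8% of the summits on assembled chromosomes in replicates 1, 2 and 3 (mean 20.8% ± 8.91, SD, n = 3). Its density was 2.43 summits per Mb in replicate 1 (95% Poisson interval 2.14 to 2.76), against 0.342 per Mb on the rest of the assembled chromosomes (0.321 to 0.363). In replicate 2 it was 4.84 per Mb (4.42 to 5.29), against 0.370 per Mb elsewhere (0.348 to 0.392). Replicate 3 had 5.52 per Mb (5.07 to 6.00), against 1.26 per Mb elsewhere (1.22 to 1.297). In no library did the interval of 8q touch that of the rest. The ratios of 8q over the rest were 7.12, 13.1 and 4.39, a mean of 2.89 ± 0.79 on the log2 scale (SD, n = 3).

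**Figure D1:**
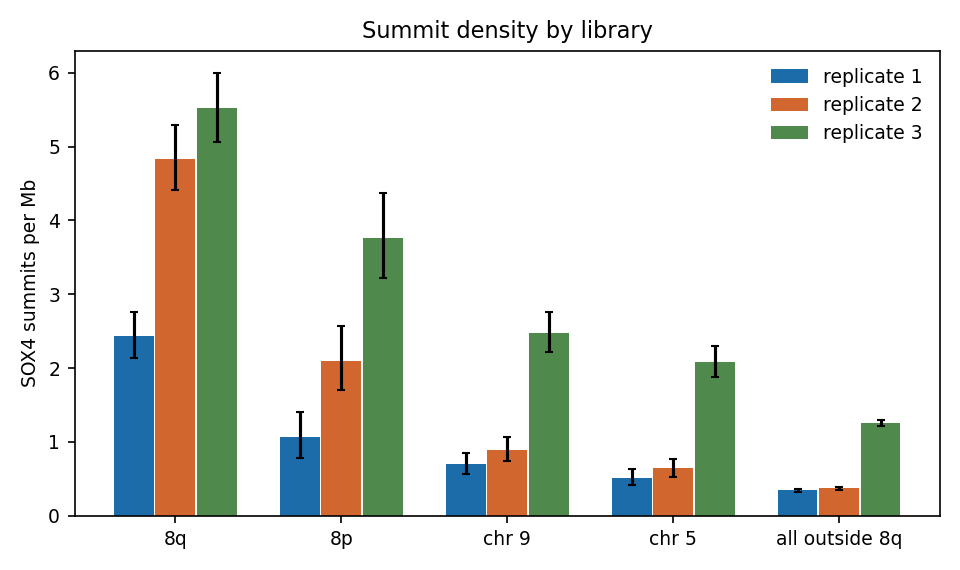
Summits per Mb (vertical axis) on 8q, 8p, chromosome 9, chromosome 5 and all assembled sequence outside 8q, with a bar for each library and exact 95% Poisson intervals. The 8q bars, at 2.43, 4.84 and 5.52 per Mb, are the tallest of their library.

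This excess was present in 3 of 3 libraries, and an exact two-sided sign-flip permutation test over the libraries gave p = 0.25. With 3 libraries 0.25 is the smallest p this test can give, so no comparison of 8q with another part can pass a threshold of 0.05 here. In all, 12 such comparisons were made, 7 of them added after the data were seen, and a p of 0.25 became 0.3 after Benjamini-Hochberg adjustment. None of the 23 other chromosomes reached the density of 8q in any library. The closest was chromosome 9, at 0.694, 0.896 and 2.48 per Mb in replicates 1, 2 and 3. The short arm, 8p, held 1.06, 2.10 and 3.76 per Mb, so that 8q was 2.29, 2.30 and 1.47 times as dense as 8p. The intervals of the 2 arms did not overlap in any library (exact sign-flip p = 0.25).

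At the border of the arm, the first summits inside it lay at 48008609 in replicate 1, 45985728 in replicate 2 and 46617550 in replicate 3, with scores of 7.81, 7.63 and 6.34. The last ones on the 8p side lay at 43056080, 43420434 and 43246670, with scores of 7.62, 6.39 and 5.56. The closest 8q summit lay 0.786 Mb past the border position, in the gap around the centromere that held no summit of any library.

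Most summits of 8q lay over 1 kb from the ends of coding genes, though many of these were inside gene bodies. Within 1 kb of either end of a coding gene were 58 of 243 in replicate 1 (23.9%, exact 95% interval 18.7 to 29.7%), 67 of 483 in replicate 2 (13.9%, 10.9 to 17.3%) and 161 of 551 in replicate 3 (29.2%, 25.5 to 33.2%). Elsewhere the shares were 44.8%, 35.9% and 58.7%. Within that rest, chromosome 9 had 35.4%, 26.6% and 38.2%, and 8p had 50%, 28.4% and 42.35%. The difference, 8q minus the rest, was −20.9, −22.1 and −29.5 percentage points, a mean of −24.1 ± 4.66 (SD, n = 3, exact sign-flip p = 0.25). Over 50 kb from any coding gene end were 50.6%, 54.5% and 42.3% of the 8q summits, against 29.6%, 36.6% and 18.6% of the others. Chromosome 9 came near 8q in replicate 3, with 39.6%, 47.6% and 41.98% in replicates 1, 2 and 3. On 8p the shares were 29.2%, 38.95% and 28.8%. The table gives no strand for these genes, so a gene's start and its other end could not be told apart.

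The excess was larger among summits away from gene ends. Counting those over 1 kb from a coding gene end, 8q had 1.85, 4.17 and 3.91 per Mb in replicates 1, 2 and 3, against 0.189, 0.237 and 0.519 per Mb elsewhere. The ratios were 9.81, 17.6 and 7.53. Coding genes cover 38.1% of 8q by length, and 37.03% of the 991 summits over 1 kb from gene ends lay inside a coding gene (30.8%, 36.5% and 40.5% in replicates 1, 2 and 3). A further 16.8% lay inside other annotated genes, and 46.2% outside every gene, where 45.2% of the arm lies.

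Genes of 8q were also hit more often than genes elsewhere. A summit lay within 1 kb of 62 of the 422 coding genes of 8q in replicate 1 (14.7%), of 74 in replicate 2 (17.5%) and of 160 in replicate 3 (37.9%). Outside 8q the shares were 2.82%, 2.44% and 12.8% of 19611 genes. The ratios of 5.21, 7.18 and 2.97 were above 1 in 3 of 3 libraries (mean 2.27 ± 0.65 on the log2 scale, SD, exact sign-flip p = 0.25). With any library, 184 of the 422 genes had a summit within 1 kb (43.6%), where the share of all 20033 coding genes was 15.1% and that of the 292 coding genes of 8p was 27.4%. The median distance from a coding gene of 8q to the nearest summit of any library was 3.92 kb, against 127 kb for coding genes elsewhere.

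**Figure D2:**
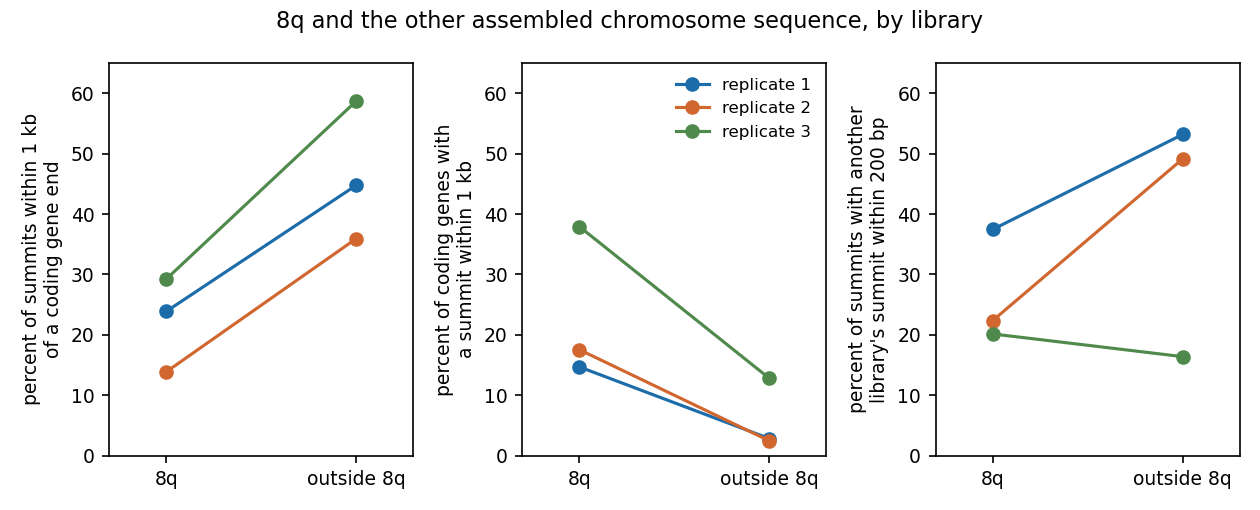
Points are libraries, joined across 8q (left) and the rest of the assembled chromosomes (right). The panels give the percent of summits within 1 kb of a coding gene end, the percent of coding genes with a summit within 1 kb, and the percent of summits with another library's summit within 200 bp. The first panel runs higher outside 8q and the second higher on 8q in all 3 libraries, and the third runs both ways.

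Along the arm the summits were broad and uneven. In the 19 whole bins of 5 Mb, counts ranged over 2 to 29 with a median of 12 in replicate 1, 1 to 59 with a median of 22 in replicate 2, and 4 to 66 with a median of 26 in replicate 3. No whole bin was empty in any library. Away from gene ends the bins of 8q had medians of 9, 18 and 19 summits. Of the 578 such bins on other chromosomes, 7, 2 and 4 reached those medians. Counts per bin ran together between libraries: Pearson's r across the 19 bins was 0.816 for replicates 1 and 2, 0.699 for 1 and 3 and 0.791 for 2 and 3. Spearman's rho for the same pairs was lower, at 0.80, 0.55 and 0.71. These values describe bins that differ in genes and sequence, and bins are not replicates. Against the number of coding genes per bin, the summits away from gene ends had Pearson's r of −0.24, −0.23 and −0.20 in replicates 1, 2 and 3, and Spearman's rho of −0.15, −0.10 and 0.08, which differ in sign in replicate 3.

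The densest bin was 85 to 90 Mb in every library, with 29, 59 and 66 summits. The bin of 110 to 115 Mb had 22, 38 and 25 summits, above the median bin in replicates 1 and 2 and just under it in replicate 3. Its 1 coding gene was CSMD3, a very long gene for a membrane protein with complement-type domains. Each of these summits lay over 1 kb from a coding gene end. Past 130 Mb the arm thinned out.

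**Figure D3:**
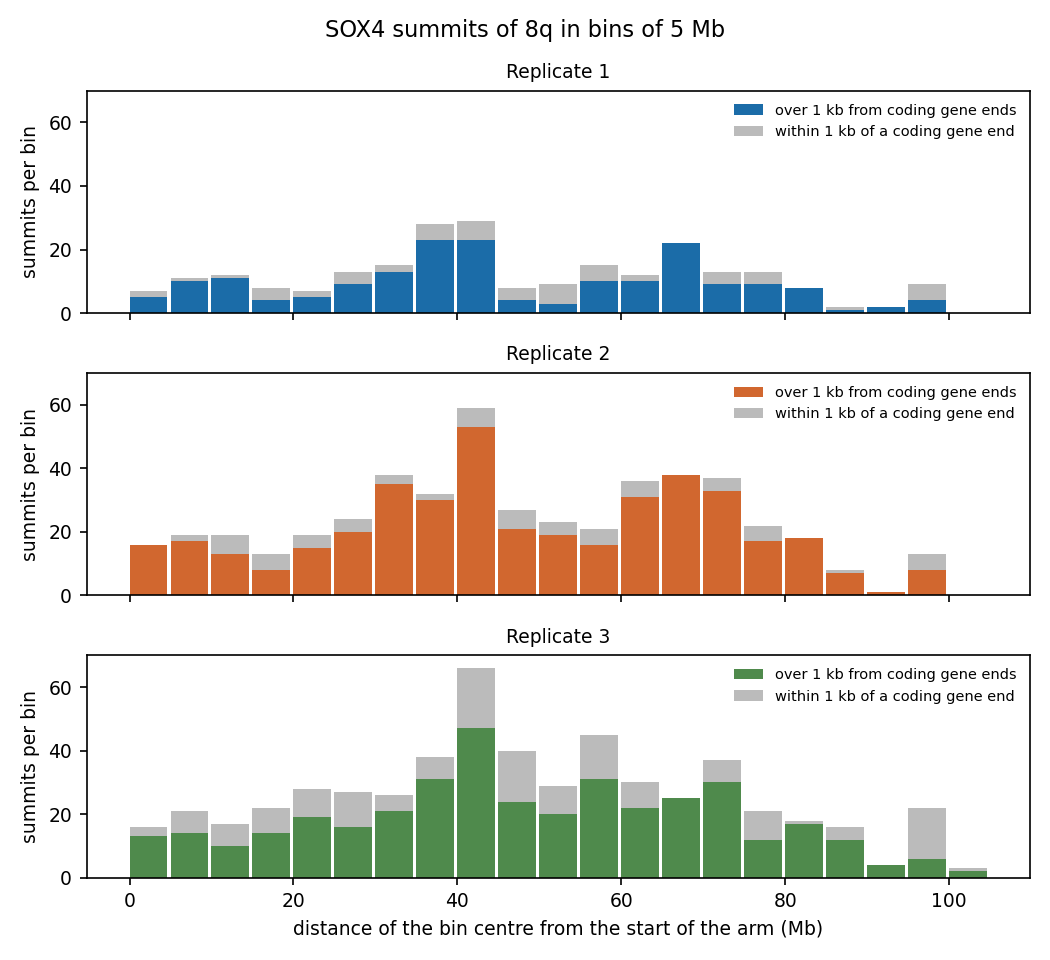
Summits of 8q per 5-Mb bin against the distance of the bin centre from the start of the arm, in a panel for each library. Coloured bars are summits over 1 kb from coding gene ends and grey bars those within 1 kb. The tallest bins, with 29, 59 and 66 summits, line up, and the bins at the far end are low apart from grey bars in the last whole bin.

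From the start of the arm to 130 Mb there were 2.10, 4.72 and 4.32 summits per Mb away from gene ends in replicates 1, 2 and 3. Past 130 Mb, a position picked after the bins were seen, there were 0.465, 1.06 and 1.59 per Mb. That is 0.222, 0.225 and 0.369 times the density before it, and still above the 0.189, 0.237 and 0.519 per Mb of the rest of the genome. Genes followed the same course. Past 130 Mb, 6.4%, 5.6% and 20% of 125 coding genes had a summit within 1 kb, against 18.2%, 22.6% and 45.5% of the 297 before it. The bin of 140 to 145 Mb is the most gene-dense of the arm, with 104 coding genes, and held 9, 13 and 22 summits.

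The coding genes with the most summits in their bodies were long ones. CSMD3 held 7, 11 and 5 summits in replicates 1, 2 and 3 over 1214 kb, and RIMS2, a gene of synaptic vesicle release, held 5, 8 and 8. VPS13B, which encodes a lipid-transfer protein of the Golgi, held 2, 8 and 9, and SNTG1, a syntrophin gene, held 3, 9 and 5. Their densities summed over the libraries were 18.9, 27.8, 21.98 and 19.2 per Mb, beside 12.8 per Mb for the whole arm. Other long genes stood near or under the arm's density, with 13.4 per Mb in STK3, 12.4 in CNBD1 and 10.8 in RALYL. Some shorter genes were denser. TMEM67, a gene of the ciliary transition zone, held 0, 5 and 2 summits in 77.8 kb (89.96 per Mb), and LRP12, a receptor-related gene, held 2, 2 and 3 in 100 kb (69.98 per Mb). IL7, the interleukin-7 gene, held 1, 3 and 3 in 130 kb. These genes were picked by their counts, so the counts are a description.

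A short run of repeated genes held much of the bin of 85 to 90 Mb. Between 85642530 and 85827839 the table lists 11 pseudogenes of the REXO1L family, copies related to an RNA exonuclease gene. This array, chosen after its values were seen and taken with 10 kb on each side (205 kb, 0.206% of the arm) held 17, 26 and 40 summits in replicates 1, 2 and 3. That is 6.996%, 5.38% and 7.26% of the arm's summits. Their scores ran from 2.85 to 15.8 with a median of 4.32 in replicate 1, 3.19 to 17.2 with a median of 6.27 in replicate 2, and 3.71 to 21.6 with a median of 7.19 in replicate 3. Within the pseudogenes themselves lay 4, 5 and 11 of them. Joined into regions, where summits at most 200 bp apart count as 1, the array gave 56 regions, of which 20 came from at least 2 libraries and 7 from all 3. Outside it, 116 of 1047 regions of 8q came from at least 2 libraries (11.1%, against 35.7% in the array). Without the array the 85 to 90 Mb bin held 12, 33 and 26 summits, against bin medians of 12, 22 and 26 over the arm, and the whole arm had 2.27, 4.59 and 5.13 summits per Mb. How reads that match several copies were placed is not given in the sources used here, and its part in this run was not tested.

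**Figure D4:**
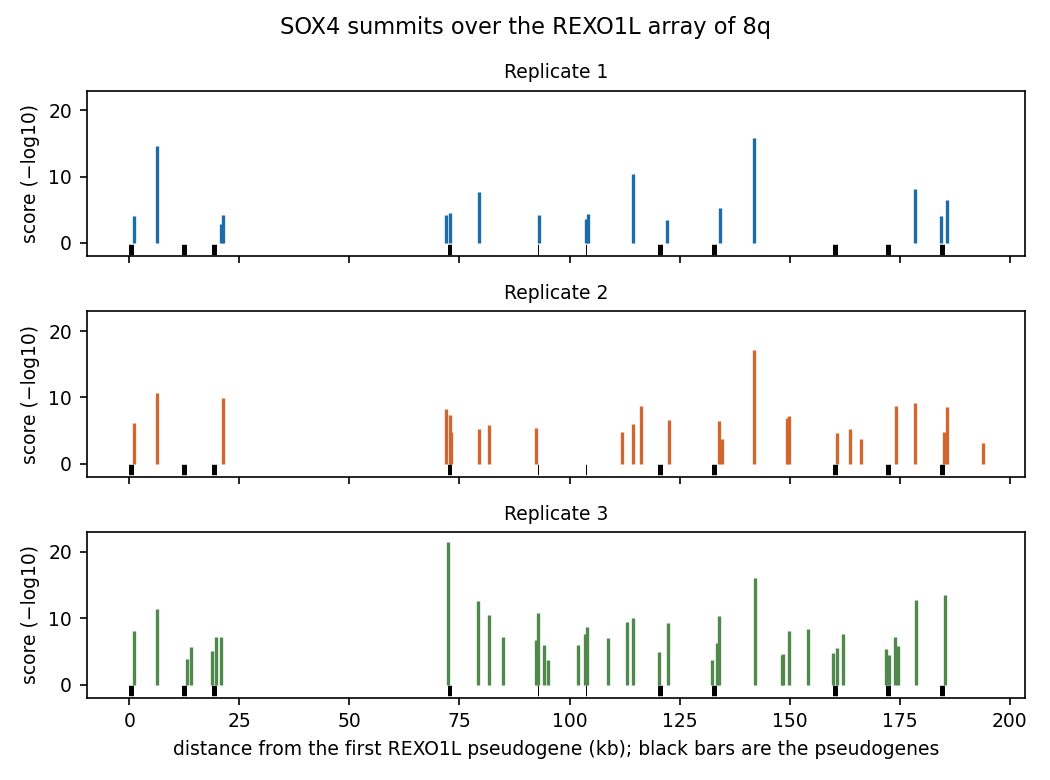
Scores (vertical lines, −log10) of every summit over the REXO1L array against the distance in kb from the first pseudogene, in a panel for each library, with pseudogenes as black bars. The 17, 26 and 40 summits spread over the whole array except for a gap near its beginning, and most lie outside the bars.

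The libraries shared fewer of the 8q summits away from gene ends than of such summits elsewhere. Summits were taken as shared where a second library had its own within 200 bp. Over 1 kb from gene ends, 52 of 185 8q summits of replicate 1 were shared (28.1%), 66 of 416 of replicate 2 (15.9%) and 57 of 390 of replicate 3 (14.6%). Elsewhere the shares were 51.2%, 43.6% and 19.5%. At gene ends the order turned round, with 67.2%, 62.7% and 33.5% of 8q summits shared, against 55.6%, 58.9% and 14.2% elsewhere. The short arm had the same split: 83.3%, 77.8% and 34.7% of its summits at gene ends were shared, and 16.7%, 7.35% and 7.14% of those away from them. Each of these contrasts of 8q with the rest had 1 direction in 3 of 3 libraries (exact sign-flip p = 0.25). For all 8q summits together the shares were 37.4%, 22.4% and 20.1%, against 53.2%, 49.1% and 16.4% elsewhere. That difference was negative in 2 libraries and positive in replicate 3 (mean −12.9 ± 15.5 percentage points, SD, exact sign-flip p = 0.5).

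Joined over the libraries, the arm had 1103 regions. Of these, 967 came from 1 library, 100 from 2 and 36 from all 3. Those of a single library came from replicate 1 in 152 cases, replicate 2 in 375 and replicate 3 in 440. The 136 regions of at least 2 libraries were 12.3% of the regions of 8q, and 14.9% of the 4908 regions elsewhere were of that kind. On 8q, a coding gene end stood within 1 kb of 59 of the 136 (43.4%), against 15.6% of the regions of 1 library. Neighbouring regions of 8q were a median of 45.5 kb apart, against 195 kb elsewhere.

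Median scores were 5.30, 5.57 and 5.67 on 8q in replicates 1, 2 and 3, against 6.15, 5.57 and 5.52 elsewhere, with no common direction (mean difference −0.23 ± 0.54, SD, n = 3, exact sign-flip p = 1). Over 1 kb from gene ends the medians were lower on 8q in 3 of 3 libraries, at 5.40, 5.57 and 5.27, against 6.63, 6.01 and 5.61 elsewhere (exact sign-flip p = 0.25). Scores above 20 made up 2.06%, 0.414% and 0.726% of the 8q summits (5, 2 and 4), against 7.35%, 6.43% and 1.36% elsewhere (75, 71 and 51). Such scores were also few on chromosome 9 (2.08%, 0.81% and 0.29%) and absent on 8p. Chromosome 5 had 6.45%, 7.76% and 1.06%. Scores above 10 made up 4.94%, 3.73% and 7.62% on 8q, against 21.7%, 15.6% and 5.84% elsewhere, so replicate 3 ran the other way there. Many scores were tied: 51.9%, 67.7% and 58.1% of the 8q summits had the exact score of another 8q summit of their list. Ties were also common elsewhere, at 53.7%, 60.9% and 84.5%. The commonest values on 8q were 4.55, 5.57 and 4.77, held by 23, 40 and 47 summits (9.465%, 8.28% and 8.53%). The same values were the commonest elsewhere, with 4.02%, 4.25% and 4.40% of the summits.

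Of the 10 strongest regions common to all 3 libraries, 3 had a coding gene end within 1 kb. Ranked by their worst place in any list, the first was at 144125868 to 144125876, outside every annotated gene and 7.54 kb from WDR97, with scores of 29.99, 58.4 and 50.1. It held place 52, 20 and 10 in the 3 lists. The next lay at 143669520 to 143669566, 14.9 kb from the zinc finger gene ZNF707, with scores of 22.4, 27.6 and 22.8. Sites of the REXO1L array followed, at 85784407, 85648727 and 85821074, and the first of them scored 15.8, 17.2 and 16.1. A site inside PVT1 and sites at the ends of PCMTD1, GGH and EBAG9 came next, and the tenth lay inside MROH5, a gene of the miscellaneous RNA class in the table, at 141492370, with scores of 6.25, 12.3 and 11.6.

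At coding genes, 19 genes of 8q had a region of all 3 libraries within 1 kb (4.50%, 95% interval 2.73 to 6.94%), where the share of all coding genes was 0.579% and that of 8p genes was 4.11% (12 of 292). These genes lay at 15 regions, 5 of which served a pair of genes, neighbours except for EBAG9 and EBAG9UORF. PCMTD1, related to protein-repair methyltransferases, had a region at 51899208 to 51899352, with its midpoint 94 bp beyond the upper coordinate of the gene, and scores of 25.2, 8.35 and 9.37. GGH, whose enzyme trims folates, had scores of 9.33, 10.8 and 8.81 at 63038791 to 63039076, 127 bp from its upper end. EBAG9, an oestrogen-responsive gene, had 6.32, 7.88 and 9.36 at 109539931 to 109539969, inside the gene and 248 bp from its lower end. Its upstream reading frame lies inside the gene and is listed as a separate gene, EBAG9UORF, so both count among the 19.

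Near the tip of the arm, PUF60, a splicing factor gene, had a region of 3 libraries at each end. The one at 143815813 to 143815966 lay between PUF60 and SCRIB, a cell polarity gene, 116 bp from the SCRIB end, and scored 13.9, 5.71 and 20.6. The other, at 143829237 to 143829348, spanned the upper end of PUF60, with its midpoint 23 bp inside the gene and 484 bp from NRBP2. It scored 28.2, 12.4 and 7.01. Replicate 3 had the highest score of the libraries at the first site and the lowest at the second.

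Of the remaining genes, NDUFB9, a subunit of respiratory complex I, scored 3.91, 4.44 and 12.7 at 124539263 to 124539300, a site it shares with TATDN1. MRPS28, of the mitochondrial ribosome, scored 4.19, 6.57 and 7.35, and MTERF3, a regulator of mitochondrial transcription, scored 4.63, 7.54 and 4.39 at a site shared with PTDSS1, a phosphatidylserine synthase gene. NBN, of the DNA break-sensing MRN complex, scored 6.405, 5.34 and 18.5 at 89984366 to 89984570, 199 bp inside its upper end. WWP1, a ubiquitin ligase gene, scored 7.24, 5.65 and 8.93. The other genes were GDAP1 of the mitochondrial outer membrane, the peroxisome gene PEX2, EMC2 of the endoplasmic reticulum membrane complex, the deubiquitinase gene OTUD6B and the pyruvate dehydrogenase phosphatase gene PDP1. Over these 15 regions the distance to the named gene ends ran from 16 to 883 bp and the scores from 3.52 to 28.2. MYBL1 fell just outside the distance, at 1082 bp.

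The neighbourhood of MYC held fewer summits than the arm's average, and none in MYC itself. MYC spans 127735434 to 127742951. Within 1 Mb of it lay 4, 7 and 7 summits in replicates 1, 2 and 3, or 1.99, 3.49 and 3.49 per Mb, beside 2.43, 4.84 and 5.52 per Mb for all of 8q. These counts are small, and whether they depart from the arm's average was not tested. The nearest summit was 111 kb away in replicate 1, 111 kb in replicate 2 and 51.3 kb in replicate 3. Of 27 annotated genes in this window, 2 are coding, MYC and POU5F1B, and 6, all long non-coding RNA genes, held a summit.

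Joined, these 18 summits gave 14 regions, 2 from all 3 libraries and the others from 1 each. The stronger lay inside PVT1, a long non-coding RNA gene next to MYC, at 127854160, 127854161 and 127854331 in replicates 1, 2 and 3. Its scores were 9.48, 10.7 and 9.01, higher than 77.7%, 86.2% and 89.8% of the summits of their lists, and it lay 111 kb past MYC on the far side from the centromere. The other lay inside the long non-coding RNA gene LOC124902020, at 128176872, 128176959 and 128176839, with scores of 5.16, 5.42 and 5.67, 434 kb from MYC. Here the scores stood above 34.3%, 42.4% and 51.9% of their lists.

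Summits of single libraries made up the rest. Replicate 3 had one at 127794262, 262 bp from the lower coordinate of PVT1 and 51.3 kb from MYC, with a score of 3.37 that stood above 3.79% of its list. Replicate 1 had a further summit inside PVT1 at 128076964, with a score of 5.23. On the centromere side of MYC, none of the lists had a summit within 500 kb. The nearest were those of replicate 2 at 127197008, inside CASC19, with a score of 4.28, and at 127157827, with a score of 4.37. Replicates 1 and 2 each had a summit inside the overlapping LOC105375751 and LOC105375753, at 126805333 and 126820934, with scores of 4.55 and 3.404. Further out on the PVT1 side, LINC00824 held a summit of replicate 2 at 128521771, with a score of 4.92, and one of replicate 3 at 128445168, with a score of 5.69. The remaining summits were those of replicate 3 at 128168719, 128344179 and 128627769, with scores of 5.15, 3.13 and 5.83, and of replicate 2 at 128356338, with a score of 4.55.

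**Figure D5:**
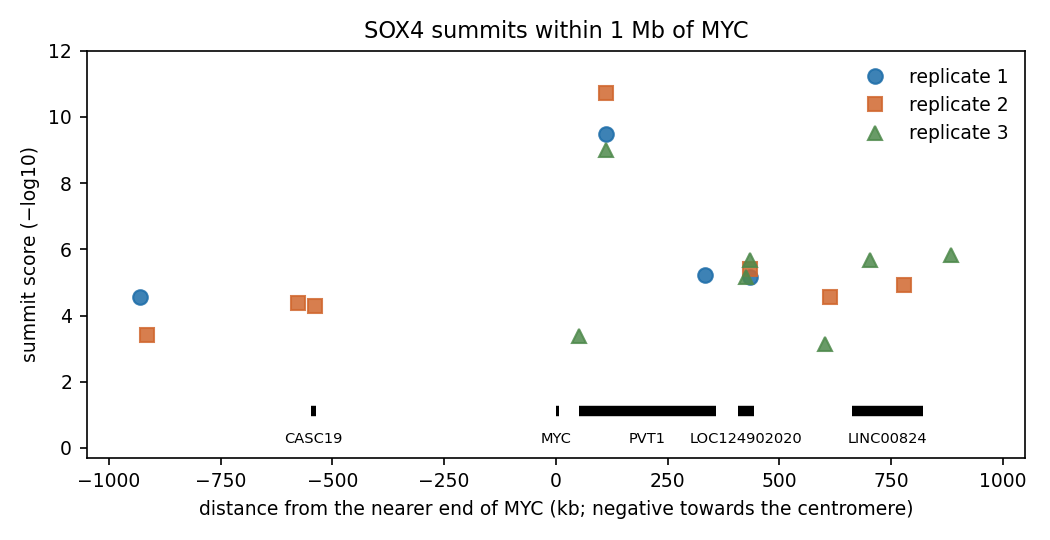
Score (−log10) of each summit within 1 Mb of MYC against its distance from the nearer end of MYC in kb, with negative values towards the centromere, by library. Black bars are MYC, PVT1, CASC19, LOC124902020 and LINC00824. No bar was drawn for POU5F1B, or for LOC105375751 and LOC105375753, which hold the 2 leftmost summits. The 3 libraries coincide at 111 kb with scores of 9.01 to 10.7 and again at 434 kb with scores of 5.16 to 5.67.

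Groups of 8q genes chosen by function differed in how many had a site. Of all 8q coding genes 17.3% (73 of 422) had a region of at least 2 libraries within 5 kb, and of all 20033 coding genes 2.98% had. Within 1 kb these shares were 15.2% and 2.51%. For a summit of any library within 5 kb they were 51.2% and 17.8%. No test of the groups was made, and the groups were drawn up with earlier results of these data known.

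Ribosomal and translation genes had such a region at 6 of 15 members and a summit of any library at 11, with a median distance of 0.346 kb to the nearest summit. RPS20, a small-subunit ribosomal protein gene, had a replicate 2 summit at 6 bp from an end (score 5.59), a replicate 3 summit at 49 bp (score 16.8) and none of replicate 1 within 1 Mb. At EIF3E, an initiation factor gene, they stood at 76 and 51 bp and scored 5.14 and 10.995. MRPL13 of the mitochondrial ribosome had summits of all 3 libraries at 62, 150 and 118 bp, with scores of 4.79, 4.65 and 6.13. Those of replicates 1 and 3 lay inside MRPL13 and that of replicate 2 in the gap between it and its neighbour MTBP, within 387 bp of MTBP, so both genes count them.

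DNA replication, repair and cohesion genes had a region of at least 2 libraries at 6 of 19 and a summit of any library at 13, with a median distance of 0.263 kb. Besides NBN and MTBP they included RAD21, a cohesin subunit gene, with replicate 2 at 263 bp (score 5.504) and replicate 3 at 403 bp (score 10.98). Those of DSCC1, which belongs to an alternative clamp loader, were 31 and 54 bp away and scored 5.39 and 9.45. For the telomere protein gene TERF1 the same libraries gave 203 and 98 bp, scoring 4.305 and 5.42.

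Genes often gained together with MYC had such a region at 9 of 24 and a summit of any library at 16, with a median distance of 0.56 kb. YWHAZ, a 14-3-3 adaptor gene, had 1 summit of each library, at 633, 600 and 1074 bp in replicates 1, 2 and 3, with scores of 2.85, 6.01 and 7.60. MTDH, encoding metadherin, had them in replicates 1 and 3 at 201 and 204 bp, with scores of 4.35 and 7.16. TPD52 had summits of all 3 libraries at 823 to 1081 bp, the same ones that lie at MRPS28.

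Transcription factors and cofactors had such a region at 3 of 29 and a summit of any library at 13, with a median distance of 8.25 kb. TRPS1, a GATA-type repressor gene of luminal breast cells, had a replicate 1 summit at 230 bp (score 7.45) and a replicate 2 summit at 376 bp (score 3.19), while the nearest of replicate 3 lay at 19.3 kb. ZHX1 had them in replicates 2 and 3 at 354 and 375 bp. Immune signalling genes had 3 of 15 and, with any library, 8. SDCBP, the syntenin gene, had 1 summit of each library, at 258, 7 and 192 bp in replicates 1, 2 and 3, with scores of 7.24, 6.25 and 14.2. PAG1, a membrane adaptor of immune cells, had a replicate 2 summit at 104 bp (score 6.199) and a replicate 3 summit at 10 bp (score 6.42). Mitochondrial and metabolic genes had 3 of 22 and, with any library, 12, among them NDUFB9 and the inositol phosphatase gene IMPA1.

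Some gene groups had no region of at least 2 libraries within 5 kb of a gene end. These were the LY6 and related genes, mostly for lipid-anchored proteins (0 of 12), and the fatty acid binding protein and carbonic anhydrase genes (0 of 10). Another was a mixed neuronal group (0 of 20) of channels, receptors and other genes such as SNTG1, RIMS2 and CRH. The zinc finger genes near the tip had 0 of 10. The LY6 and zinc finger groups lie wholly past 130 Mb. There 6.4%, 5.6% and 20% of coding genes had a summit within 1 kb in replicates 1, 2 and 3, against 18.2%, 22.6% and 45.5% before it. This count leaves out sites deep inside genes: a region of 3 libraries lay inside RIMS2, 32.5 kb from an end, another inside FABP12, a fatty acid binding protein gene, 14.9 kb from an end, and regions of 2 libraries lay inside RIMS2 and CSMD3. With any library the LY6 group had 1 of 12, PSCA, from a replicate 3 summit at 408 bp with a score of 4.99, and its median distance to a summit was 83.02 kb. The fatty acid binding protein and carbonic anhydrase genes had 4 of 10 with any library, and the zinc finger genes 3 of 10. Among all 8q coding genes the share was 51.2%. The neuronal group had 4 of 20, of which SNTG1 had summits of all 3 libraries at 868, 1085 and 283 bp, and their scores were 4.79, 4.28 and 5.25. The corticotropin-releasing hormone gene CRH had them in replicates 2 and 3 at 727 and 941 bp. At SNTG1 the summits of replicates 1 and 2 lay at 49910664 and 49910881. At CRH those of replicates 2 and 3 lay at 66177103 and 66177317. Each pair stood just over 200 bp apart and so was not joined into a region. The 0 of 20 of the neuronal group therefore rests on that joining distance.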

How the data were processed

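The deposited files give, for each of 3 libraries, 1-bp summits with a score that the authors' peak caller wrote as −log10 of a p or q value. The labels do not say which. The submitters' processing notes name MACS2, SAMtools and BWA, and hg19 as the build. Summits on chromosome 17 reach 83247361, close to the last gene end of the GRCh38 RefSeq table (83240804), and positions were read as GRCh38. No versions, control library or handling of reads with several matches are given in the sources used here.

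Summits past 45200000 on chromosome 8 were assigned to 8q. Lengths ran to the last annotated gene end. Distances were taken to the nearer end of a coding gene in either direction. Summits of any library at most 200 bp apart were joined into regions. Densities carry exact Poisson intervals and shares exact binomial (Clopper-Pearson) intervals at 95%, which cover counting error only, since the depth is unknown. Differences over libraries were tested by exact two-sided sign-flip permutation.

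Named were all coding genes within 1 kb of a region of 3 libraries, the first 10 regions by worst rank, the summits and genes around MYC and up to 5 genes a list, ranked by libraries within 5 kb and then by distance. One result that this rule names is not reported here. The arm, the border and the 10 gene lists were chosen with earlier results of these data known. Python 3.11.15, NumPy 2.4.6, pandas 2.3.3, SciPy 1.17.1 and matplotlib 3.10.9 were used, and the steps were tested on simulated data. Alternatives were another window, bin size and score threshold, leaving out each library and, added after the data were seen, leaving out the REXO1L array and, for density, past 130 Mb alone. Distal summits alone and lists of equal length were planned for other results and added later for the share found in another library.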

Additional observations from a re-analysis of the deposited data

How the results depend on the processing

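The higher density of 8q kept its direction in all 11 alternatives, with a mean log2 ratio of 1.52 (past 130 Mb alone) to 3.45. The share of genes with a summit (1.98 to 2.61 on the log2 scale, 8 alternatives), the share of summits at gene ends (−28.3 to −16.0 percentage points, 7 alternatives) and the share found in another library (−18.6 to −6.92 percentage points, 9 alternatives) also kept theirs. The difference in median score changed sign without replicate 1 (0.0789) and ranged from −0.43 to 0.08 over the libraries left out, while the difference in the 90th percentile of the scores was −4.61. The 136 regions of at least 2 libraries became 51 among summits at or above the median score and 59 to 78 with a library left out. The highest bin density, 10.3 summits per Mb per library, became 17.5 with 2 Mb bins and 8.8 to 12.5 with a library left out. Without the REXO1L array it became 6.53, and the densest bin was then 80 to 85 Mb. The 18 summits around MYC became 9 within 500 kb, 31 within 2 Mb and 11 to 14 with a library left out. Of the 162 listed genes, 26 had a region of at least 2 libraries within 5 kb, 47 within 50 kb and 8 to 14 with a library left out, while a summit of any library lay within 1 kb of 69, 5 kb of 77 and 50 kb of 123. The cause of these shifts was not tested. Read depth, copy number of 8q and background signal were not analysed here, so their part in the density was not tested.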
